A study of Homo sapiens with 18 samples.

Results

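The nucleolar ribosome biogenesis factors described here are 48 genes whose products work in the nucleolus on ribosomal RNA and preribosomes. The members were taken by gene symbol, not by measured value, although earlier results of these data were known. All 48 had a row among the 30954 gene IDs of the H2052 count table. They fall into 6 role groups: 4 box C/D small nucleolar ribonucleoprotein (snoRNP) proteins, 4 box H/ACA snoRNP proteins, 5 nucleolar phosphoproteins, chaperones and helicases, 17 factors of the small subunit processome, 15 factors of the large subunit, and 3 subunits of RNA polymerase I.

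H2052 is a human pleural mesothelioma cell line with a defective Hippo pathway, and VT107 is a small-molecule inhibitor of TEAD palmitoylation. TEAD proteins bring the coactivators YAP and TAZ to DNA. Poly(A) RNA was sequenced in 4 groups of 3 libraries: NF1 mutant H2052 cells with VT107, NF1 mutant cells with DMSO, parental H2052 cells with VT107, and parental cells with DMSO, each at 1 µM VT107 or the matching DMSO volume for 24 h. A separate table holds 3 VT107 and 3 DMSO libraries of H226, another mesothelioma line. NF1 mutant cells were made with Cas9 and a guide RNA delivered by lentivirus and selected with drugs, and NF1 encodes a negative regulator of RAS. The guide was added to cells that already expressed Cas9, and the study's immunoblots describe their parental controls as Cas9-expressing too. Whether the NF1 mutant cells are a clone or a pool, and whether the parental cells sequenced here carried Cas9, could not be told from the labels or methods. The libraries of a group are biological replicates by the study's legends.

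Ribosome production starts in the nucleolus, where RNA polymerase I transcribes a long precursor ribosomal RNA. Box C/D and box H/ACA snoRNPs methylate and pseudouridylate that precursor, the small subunit processome cleaves and folds its 5′ part, and a separate set of factors assembles the large subunit before export. Growing and dividing cells use these factors heavily, and many of their genes are known targets of the transcription factor MYC.

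Total counts were 3285363 to 4806065 in NF1 mutant VT107 libraries, 3988479 to 5489092 in NF1 mutant DMSO libraries, 12424914 to 13346712 in parental VT107 libraries and 10950284 to 13418485 in parental DMSO libraries. Parental columns carry a date-like prefix that NF1 mutant columns lack, so the mutation, the depth and the set of libraries cannot be told apart. NF1 itself was at 12.5, 16.8 and 17.8 CPM, the count scaled to library size, in NF1 mutant DMSO libraries, against 67.7, 62.4 and 33.7 CPM in parental DMSO libraries (log2 fold change -1.78, SE 0.27, adjusted p = 0.00229, edgeR). The mesothelial markers WT1 (18.4 to 48.6 CPM) and MSLN (13 to 70.9 CPM) were present in all 12 libraries, while CALB2 was at 0 to 8.23 CPM and UPK3B at 0.288 to 1.46 CPM. The leukocyte marker CD3E was at 0 in every library and PTPRC was at most 0.268 CPM. The 8 leukocyte markers summed to 14.2 to 29.8 CPM in NF1 mutant VT107 libraries, against 8.04 to 9.85 CPM in NF1 mutant DMSO libraries, and to 4.93 to 24 CPM in parental VT107 libraries, against 2.88 to 14.4 CPM in parental DMSO libraries, most of it CD68, a lysosomal protein gene. CD74, the invariant chain of class II molecules, reached 6.78 CPM in VT107 replicate 3 and 4.92 CPM in DMSO replicate 3 of parental cells. The part of these markers in the results was not tested. As a check of the treatment, the YAP and TEAD target CTGF was at 3.97, 10.5 and 13.2 CPM in NF1 mutant VT107 libraries, against 35.6, 35.7 and 42.9 CPM in NF1 mutant DMSO libraries, and at 30.6, 27.2 and 27.1 CPM in parental VT107 libraries, against 63.4, 70.3 and 93.5 CPM in parental DMSO libraries. Yet edgeR did not call CTGF in NF1 mutant (log2 fold change -2.03, SE 0.43, adjusted p = 0.773) or parental cells (-1.41, SE 0.20, adjusted p = 0.916). Nor did it call CYR61, another such target (-1.81, SE 1.13, adjusted p = 0.773, and -1.11, SE 0.20, adjusted p = 0.999, in that order). A gene that did not pass in these VT107 tests is therefore not shown to be unchanged. VT107 replicate 1 of the NF1 mutant cells stood apart: it was the lowest of the 12 libraries for 25 of 46 members (54.3%) and for 35.1% of the 11432 genes tested in both lines, and the highest for 9 members (19.6%) and 30% of genes. The number 3 libraries of parental cells also differed from numbers 1 and 2, and results that rest on either set are given with and without them.

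Read counts assigned to the 48 genes made up 0.501, 0.515 and 0.522% of all counts in NF1 mutant VT107 libraries, against 0.615, 0.661 and 0.659% in NF1 mutant DMSO libraries. The share was 0.727, 0.663 and 0.474% in parental VT107 libraries, against 0.909, 0.87 and 0.734% in parental DMSO libraries. Within each line every VT107 library had a lower share than every DMSO library, and the 95% Wilson interval of a share reached at most 0.0079 percentage points to either side, for counting error only. Summed CPM of the 48 genes, which also carry a scaling factor per library (TMM), overlapped in both lines. The sums were 5013 to 6131 in NF1 mutant VT107 libraries, against 6037 to 6546 in NF1 mutant DMSO libraries. In parental cells they were 4539 to 7376 with VT107, against 7186 to 8797 with DMSO. In bulk RNA, fewer cells of a kind and less RNA per cell cannot be told apart.

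**Figure D1:**
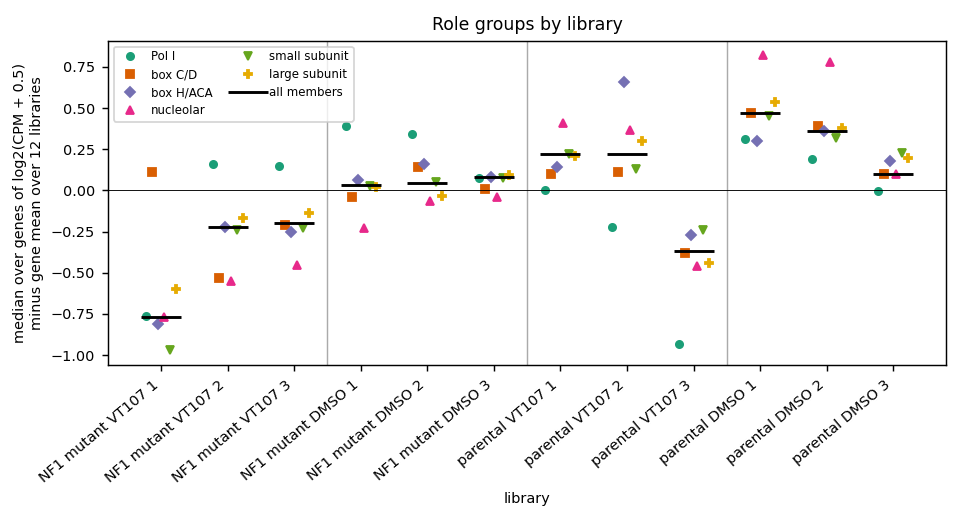
Levels of the 6 role groups (symbols) and of all members (black bars) in each of the 12 H2052 libraries, as the median over genes of log2(CPM + 0.5) minus the gene's mean over all libraries, with NF1 mutant VT107, NF1 mutant DMSO, parental VT107 and parental DMSO libraries side by side. Over all members the median deviation was -0.77, -0.22 and -0.20 in NF1 mutant VT107 libraries, against 0.034, 0.048 and 0.08 in NF1 mutant DMSO libraries.

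Set against transcript length, so that genes can be compared with each other, NPM1 ranked first in all 4 groups. NPM1 is a histone chaperone and shuttle of the granular part of the nucleolus, and its median was 850 CPM per kilobase of transcript in parental VT107 libraries, against 1059 CPM per kilobase in parental DMSO libraries. NCL, encoding nucleolin, which binds precursor ribosomal RNA, had a median of 266 CPM per kilobase in parental VT107 libraries, against 328 CPM per kilobase in parental DMSO libraries. FBL, the methyltransferase of box C/D snoRNPs, ranked next to NPM1 in NF1 mutant cells, with a median of 375 CPM per kilobase in NF1 mutant VT107 libraries and 410 CPM per kilobase in NF1 mutant DMSO libraries. BOP1, a large subunit factor, was the least abundant member as counted, at 0 to 0.85 CPM in the 12 libraries, and was not tested in H2052. It had at most 5 counts in any of these libraries, and a gene on the other strand overlaps it. Whether its reads were lost in counting was not tested. Within the other role groups EBNA1BP2 was the most abundant large subunit factor and POLR1C the most abundant RNA polymerase I subunit in all 4 groups, while the box H/ACA proteins were led by NOP10 in NF1 mutant cells and DKC1 in parental cells, and the processome by NOP14 in NF1 mutant cells and WDR43 in parental cells. POLR1C, which RNA polymerases I and III share, had a median of 14.2 CPM per kilobase in parental VT107 libraries, against 15.9 CPM per kilobase in parental DMSO libraries. With the transcript lengths used, WDR12, a large subunit factor, and TBL3, a processome protein, were among the 4 lowest in all groups. The length used for TBL3, 6803 bases, exceeds the span of its gene in hg19 (2022038 to 2028751), so its rank is uncertain.

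**Figure D2:**
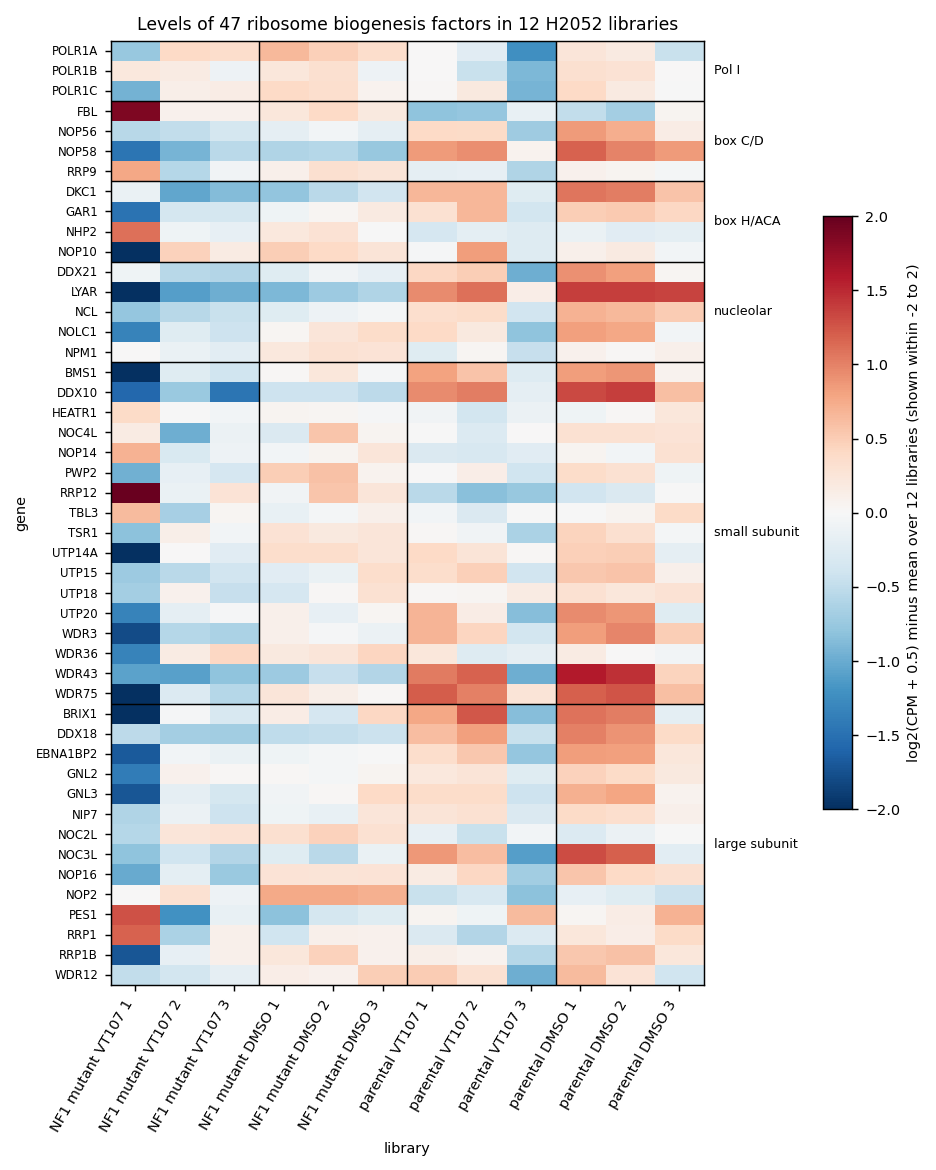
Deviation of log2 CPM from the gene's mean over all 12 H2052 libraries for 47 members (without BOP1), 1 line per gene by role group and 1 column per library. Most members are below their mean in NF1 mutant VT107 libraries, replicate 1 above all, and above it in parental DMSO libraries 1 and 2.

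In parental H2052 cells the question was whether blocking TEAD palmitoylation moves these genes. Of the 47 members tested, 46 (97.9%) had a negative log2 fold change of VT107 against DMSO, where 48.2% of the 12891 genes tested did, and the median was -0.34 (all genes 0.013). Without VT107 replicate 3 the median was -0.16 and 39 of 47 were negative, and without any other single library it was -0.46 to -0.30. No member passed an adjusted p of 0.05 in the edgeR quasi-likelihood test, in which 0% of genes passed in either direction. At an unadjusted p under 0.05 there were 5 members, where 474 of the 12891 genes reached it, and DESeq2 and voomWithQualityWeights called 0 members, against 0.233% and 0.14% of genes. The VT107 and DMSO groups did not overlap, with VT107 lower, for 10 members (21.3%), against 6.05% of all genes, and none of the members had VT107 apart and higher, against 4.44%.

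Same-number libraries deviated together across treatment, although numbers 1 and 2 did so with each other as well and only number 3 stood apart, and the fit with the number as a block is given beside the test without it. With the block 4 of 47 members (8.51%) fell, against 0.822% of all genes, 0 rose, against 0.846%, and 27 members (57.4%) had an unadjusted p under 0.05, against 17.7% of genes. The labels state no pairing. Set by number alone, VT107 libraries were lower than the DMSO library of the same number for 42, 39 and 46 of the 47 members (89.4%, 83% and 97.9%), where 52.2%, 57% and 50.3% of the 12891 genes were. For all 3 numbers 33 members (70.2%) were lower, against 23.9% of genes.

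RRP1, which assembles the large subunit, had 29.7, 24.1 and 30 CPM in parental VT107 libraries, against 43, 40.1 and 47.6 CPM in parental DMSO libraries. All 3 VT107 libraries lay below all DMSO libraries. The log2 fold change was -0.63 (SE 0.18, unadjusted p = 0.00886, adjusted p = 0.999) without the block and -0.63 (SE 0.11, adjusted p = 0.0263) with it.

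RRP1B, the paralogue of RRP1, had 85.6, 82.9 and 52.7 CPM in parental VT107 libraries, against 115, 118 and 92.1 CPM in parental DMSO libraries. Here too the groups did not overlap, and the log2 fold change was -0.54 (SE 0.22, adjusted p = 0.999) without the block and -0.56 (SE 0.11, adjusted p = 0.0413) with it.

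NOC3L, a large subunit factor of the early nucleolar steps, had 58.8, 49.5 and 14.7 CPM in parental VT107 libraries, against 79.8, 74.2 and 27.6 CPM in parental DMSO libraries. The number 3 libraries were far lower in both treatments and the groups overlapped. The log2 fold change was -0.55 (SE 0.55, adjusted p = 0.999) without the block and -0.61 (SE 0.12, adjusted p = 0.0391) with it.

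NOLC1, a chaperone of snoRNPs, had 118, 102 and 50.9 CPM in parental VT107 libraries, against 158, 153 and 85.4 CPM in parental DMSO libraries. The groups overlapped through the number 3 libraries, and the log2 fold change was -0.53 (SE 0.35, adjusted p = 0.999) without the block and -0.57 (SE 0.11, adjusted p = 0.0368) with it.

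The members with the next smallest unadjusted p values did not pass with or without the block. RRP12, a small subunit factor, had a log2 fold change of -0.49 (SE 0.19), POLR1B, a core subunit of RNA polymerase I, of -0.60 (SE 0.25), and NOP14, another small subunit factor, of -0.39 (SE 0.16). The medians over role groups were -0.51 for the nucleolar phosphoproteins, chaperones and helicases, -0.41 for RNA polymerase I, -0.34 for box C/D snoRNP proteins, -0.29 for large subunit factors, -0.27 for the small subunit processome and -0.14 for box H/ACA snoRNP proteins. NOP10, a small H/ACA protein, was the only member with a positive value, 0.20, and 1 library alone was high. Its lowest, median and highest levels were 107, 127 and 231 CPM per kilobase in parental VT107 libraries. In parental DMSO libraries they were 124, 139 and 147 CPM per kilobase.

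Without the number 3 libraries the median over members was -0.20 and 44 of the 47 were negative, and 0 members passed, against 0.329% of genes. Transcript length moved with this result: across 12684 genes the fold change had a Pearson r of -0.135 with log2 transcript length, and -0.306 across the members, and the median over members was -0.36 in a fit with a length offset.

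**Figure D3:**
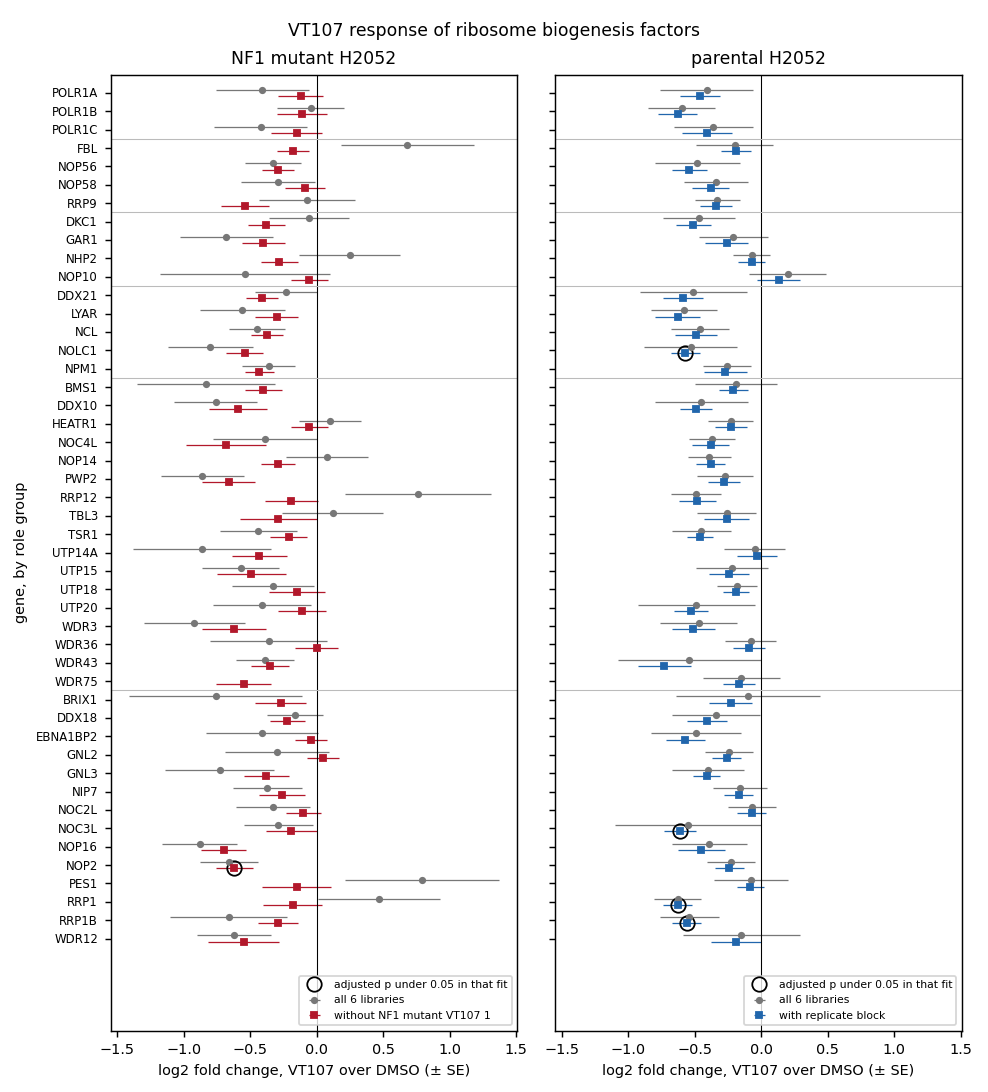
Log2 fold change of VT107 against DMSO for each member, by role group, in NF1 mutant (left) and parental (right) H2052 cells, with bars of 1 SE, all libraries in grey, the fit without NF1 mutant VT107 replicate 1 in red, the fit with the replicate block in blue, and rings, drawn on the red and blue points alone, where the adjusted p was under 0.05. With all libraries, each parental value except that of NOP10 lies below 0, and 38 of 46 NF1 mutant values do.

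In NF1 mutant cells 38 of the 46 members tested (82.6%) had a negative log2 fold change of VT107 against DMSO, against 47.5% of the 11605 genes tested, with a median of -0.39 (all genes 0.032). WDR75, a small subunit factor, was left out because VT107 replicate 1 had 0 CPM. No member passed an adjusted p of 0.05 in the edgeR test, where 0% of genes passed, 6 members and 623 genes had an unadjusted p under 0.05, and DESeq2 called 0 members, against 0.172% of genes, and voomWithQualityWeights 2 lower members, NOP16 and NOP2, against 0.534% of genes. VT107 lay wholly below DMSO for 20 members (43.5%), against 8.28% of genes, and wholly above for 0, against 7.6%.

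Without VT107 replicate 1, 46 of 47 members were negative with a median of -0.29, and 1 member (2.13%) fell, NOP2, against 0.715% of the 12443 genes tested, and 0 rose, against 0.876%. NOP2, a methyltransferase of the large subunit RNA, had 60.1, 74.4 and 56.2 CPM in NF1 mutant VT107 libraries, against 102, 102 and 98.4 CPM in NF1 mutant DMSO libraries. Every VT107 library was below every DMSO library. Its log2 fold change was -0.66 (SE 0.22, unadjusted p = 0.0193, adjusted p = 0.773) with all libraries and -0.62 (SE 0.14, adjusted p = 0.0431) without VT107 replicate 1.

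NOP16, a large subunit factor, had 21, 37.1 and 25.2 CPM in NF1 mutant VT107 libraries, against 51.7, 51 and 51.4 CPM in NF1 mutant DMSO libraries. The groups were apart. The log2 fold change was -0.88 (SE 0.28, adjusted p = 0.773), and -0.70 (SE 0.17, adjusted p = 0.0557) without VT107 replicate 1. PWP2, a small subunit processome protein, had 11.9, 21.1 and 18.7 CPM in NF1 mutant VT107 libraries, against 33.6, 35.9 and 25.1 CPM in NF1 mutant DMSO libraries. NOLC1 had 35.1, 75.6 and 66.7 CPM in NF1 mutant VT107 libraries, against 91.9, 105 and 115 CPM in NF1 mutant DMSO libraries. In all 3 genes VT107 replicate 1 was the lowest of the 12 libraries, and neither of the last pair of log2 fold changes, -0.86 (SE 0.31) for PWP2 and -0.80 (SE 0.32) for NOLC1, passed. DDX10, a helicase of the small subunit, had 10.8, 19.5 and 11.7 CPM in NF1 mutant VT107 libraries, against 24.5, 24.7 and 22.7 CPM in NF1 mutant DMSO libraries, which were apart, and its log2 fold change of -0.76 (SE 0.31) did not pass either.

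Other members were high in VT107 replicate 1. FBL was at 1491, 433 and 435 CPM in NF1 mutant VT107 libraries, against 476, 541 and 466 CPM in NF1 mutant DMSO libraries. RRP12 was at 150, 34.3 and 45.6 CPM in NF1 mutant VT107 libraries, against 36.1, 55.6 and 44.6 CPM in NF1 mutant DMSO libraries. Both were higher in replicate 1 than in any other library of the line, and neither fold change passed.

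The VT107 response of the NF1 mutant cells minus that of parental cells, an interaction term, passed an adjusted p of 0.05 for 0 of 46 members and 0% of 11432 genes, with 0 members and 78 genes at an unadjusted p under 0.05, 0 members called by DESeq2 or voomWithQualityWeights, and 0 with the block. The median difference over members was 0.0017, with 23 of each sign, and ran from -0.21 to 0.10 when single libraries were left out. RRP1 had the smallest unadjusted p, with a difference of 1.11 (SE 0.52), and 0.46 (SE 0.33) without NF1 mutant VT107 replicate 1. The next were RRP12 at 1.25 (SE 0.62), which was 0.31 (SE 0.30) without that library, POLR1B at 0.56 (SE 0.37), PWP2 at -0.58 (SE 0.39) and NOP2 at -0.42 (SE 0.29). These tests do not show that both lines respond alike: the SE of the difference was 0.27 for NPM1, 0.63 for WDR43 and 0.90 for BRIX1. Over both lines 37 of 46 members (80.4%) were negative in each, against 30.5% of 11432 genes. VT107 was wholly below DMSO in each line for 2 of 46 members (4.35%), LYAR and NCL, against 1.56% of genes.

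In DMSO, 15 of 47 members (31.9%) were lower in NF1 mutant than in parental cells, against 14.9% of 12475 genes, and 3 (6.38%) were higher, against 12.5%. The median over members was -0.24, against -0.015 for all genes, and it was -0.14 without NF1 mutant DMSO replicate 1 and -0.36 without NF1 mutant DMSO replicate 3. NF1 mutant libraries lay wholly below parental ones for 17 members, against 23% of genes, and wholly above for 9, against 21.5%. LYAR, NOP58, DKC1, DDX18, DDX10 and WDR43 fell and NOP2 rose, in each of the 17 alternatives tried. NCL fell in 16 of 17.

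LYAR, a nucleolar zinc-finger protein of cell growth, lies at chromosome 4, 4269428 to 4291896 on the minus strand (hg19, ENSG00000145220). It had 36.8, 41.6 and 45.1 CPM in NF1 mutant DMSO libraries, against 180, 181 and 177 CPM in parental DMSO libraries. The groups were far apart in each library, and the log2 fold change was -2.10 (SE 0.13, adjusted p = 5.01e-05). LYAR was also apart and lower in the VT107 libraries, where the fold change did not pass.

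NOP58, a core box C/D protein, had 77.9, 79.2 and 70.2 CPM in NF1 mutant DMSO libraries, against 270, 237 and 213 CPM in parental DMSO libraries, a log2 fold change of -1.64 (SE 0.13, adjusted p = 0.000119). DKC1, the pseudouridine synthase of box H/ACA snoRNPs, had 126, 149 and 166 CPM in NF1 mutant DMSO libraries, against 458, 440 and 323 CPM in parental DMSO libraries, a log2 fold change of -1.45 (SE 0.16, adjusted p = 0.000539). In both genes every NF1 mutant library was below every parental one.

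DDX18, a large subunit helicase, had 91.4, 93.4 and 96.2 CPM in NF1 mutant DMSO libraries, against 262, 241 and 170 CPM in parental DMSO libraries, and its log2 fold change was -1.24 (SE 0.16, adjusted p = 0.00109). DDX10, a small subunit helicase, had 24.5, 24.7 and 22.7 CPM in NF1 mutant DMSO libraries, against 83.5, 87.1 and 50.5 CPM in parental DMSO libraries, and its log2 fold change was -1.59 (SE 0.21, adjusted p = 0.00114). WDR43, a processome protein, had 120, 144 and 132 CPM in NF1 mutant DMSO libraries, against 599, 549 and 270 CPM in parental DMSO libraries, and its log2 fold change was -1.81 (SE 0.26, adjusted p = 0.00169). Within parental DMSO the number 3 library was the lowest for all 3 of these genes.

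NCL had 715, 793 and 827 CPM in NF1 mutant DMSO libraries, against 1381, 1324 and 1203 CPM in parental DMSO libraries, a log2 fold change of -0.72 (SE 0.11, adjusted p = 0.00207). NOP2 went the other way, with 102, 102 and 98.4 CPM in NF1 mutant DMSO libraries, against 53.3, 50.5 and 44.6 CPM in parental DMSO libraries, a log2 fold change of 1.05 (SE 0.12, adjusted p = 0.000622). WDR75 (-0.91, SE 0.20, adjusted p = 0.0114) and WDR3 (-0.78, SE 0.19, adjusted p = 0.0156), both small subunit proteins, were lower, with the call kept in 14 of 16 alternatives for WDR75 and in 9 of 17 for WDR3. All of these NF1 mutant libraries were apart from the parental ones.

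The remaining 8 called members had larger adjusted p values and kept the call in 8 to 13 of the 17 alternatives. NOP56, a core box C/D protein, had 175, 191 and 175 CPM in NF1 mutant DMSO libraries, against 357, 328 and 219 CPM in parental DMSO libraries (log2 fold change -0.72, SE 0.17). DDX21 had 291, 328 and 305 CPM in NF1 mutant DMSO libraries, against 644, 604 and 352 CPM in parental DMSO libraries (-0.76, SE 0.20). EBNA1BP2, a large subunit factor, had 154, 158 and 162 CPM in NF1 mutant DMSO libraries, against 291, 287 and 190 CPM in parental DMSO libraries (-0.67, SE 0.16). These 3 were wholly lower in NF1 mutant cells, with the number 3 library lowest among the parental ones. PES1, the partner of BOP1, had 30.9, 43.1 and 46.3 CPM in NF1 mutant DMSO libraries, against 56.4, 60.6 and 89.5 CPM in parental DMSO libraries (-0.76, SE 0.23). GAR1, an H/ACA protein, had 35.8, 38.7 and 42.9 CPM in NF1 mutant DMSO libraries, against 53.5, 54.9 and 50.7 CPM in parental DMSO libraries (-0.42, SE 0.14). NOC3L had 26.8, 21.9 and 29.2 CPM in NF1 mutant DMSO libraries, against 79.8, 74.2 and 27.6 CPM in parental DMSO libraries (-1.19, SE 0.35), and was the only called member whose groups overlapped. NOC2L, the partner of NOC3L, had 76.7, 85.1 and 76.2 CPM in NF1 mutant DMSO libraries, against 50.8, 56.8 and 61.2 CPM in parental DMSO libraries (0.52, SE 0.14). FBL had 476, 541 and 466 CPM in NF1 mutant DMSO libraries, against 291, 254 and 425 CPM in parental DMSO libraries (0.63, SE 0.20). These last were wholly higher in NF1 mutant cells.

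**Figure D4:**
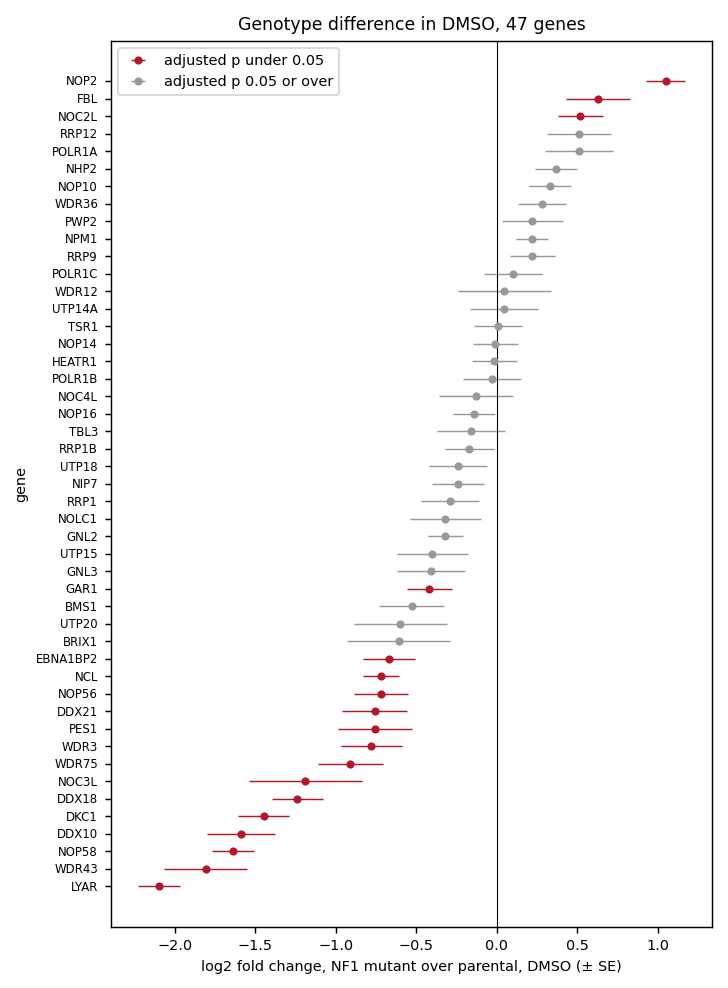
Log2 fold change of NF1 mutant against parental cells in DMSO for the 47 tested members in order of size, with bars of 1 SE and the 18 members with an adjusted p under 0.05 in red. LYAR, at -2.10, is the lowest and NOP2, at 1.05, the highest.

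By role, 3 of 5 nucleolar phosphoproteins, chaperones and helicases fell, 2 of 4 box H/ACA proteins, 2 of 4 box C/D proteins with 1 higher, 4 of 14 large subunit factors with 2 higher, 4 of 17 processome factors, and 0 of 3 RNA polymerase I subunits. Among the 94 other ribosome biogenesis factors of the wider list 29 were lower (30.9%) and 14 higher (14.9%), including ESF1 (-3.40, SE 0.41, adjusted p = 0.000717) and RRP7A (1.09, SE 0.11, adjusted p = 0.000339). Of 75 cytosolic ribosomal proteins 8 were lower and 22 higher. Of all genes tested 14.9% were lower and 12.5% higher. MYC had 32.9, 21.2 and 30.9 CPM in NF1 mutant DMSO libraries, against 15.3, 17.1 and 14.5 CPM in parental DMSO libraries, and rose by a log2 fold change of 0.88 (SE 0.20, adjusted p = 0.0115). With VT107, MYC was at 1.13, 25.5 and 21.4 CPM in NF1 mutant libraries and 13.5, 8.78 and 8.3 CPM in parental ones. Its log2 fold changes of VT107 against DMSO, -0.81 (SE 0.79) and -0.60 (SE 0.24) in that order, did not pass. The part of MYC was not tested.

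Leaving out NF1 mutant DMSO library 1, 2 or 3 gave 8, 7 and 7 lower members, and leaving out parental DMSO library 1, 2 or 3 gave 9, 10 and 24. The share of all genes lower was 7.94%, 8.38%, 9.07%, 10.8%, 10.8% and 26.3% in these fits, and 1 member was higher in each of them but the last, which had 7. Without the number 3 libraries 24 members were lower and 8 higher, against 25.7% and 23.3% of genes, and voomWithQualityWeights gave 24 lower and 8 higher, against 26.5% and 26.1%. The replicate block gave 13 lower and 3 higher, against 13.3% and 10.6%, and a fit of all 12 libraries together gave 6 lower and 1 higher, against 6.43% and 1.99%. Between genotypes, too, fold changes over all genes moved with log2 transcript length. Pearson r was -0.202 across 12300 genes in DMSO and -0.207 across 11505 genes in VT107. Across the members it was -0.0191 in DMSO and 0.0106 in VT107.

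In VT107, no member passed between NF1 mutant and parental cells in edgeR (0 of 46, 0% of 11654 genes), with 9 members and 1945 genes at an unadjusted p under 0.05, while DESeq2 called 3 lower and 1 higher, against 3.83% and 1.99% of genes. voomWithQualityWeights gave 19 lower and 3 higher, against 17.6% and 13.5%, and all 12 libraries in 1 fit gave 7 lower and 2 higher, against 6.51% and 4.84%. NF1 mutant libraries lay wholly below parental ones for 8 members, against 14.3% of genes, and wholly above for 5, against 11.2%. LYAR had 16.7, 31.8 and 34.8 CPM in NF1 mutant VT107 libraries, against 133, 148 and 75.6 CPM in parental VT107 libraries, a log2 fold change of -2.10 (SE 0.42, adjusted p = 0.0857). Without NF1 mutant VT107 replicate 1 LYAR fell, at -1.83 (SE 0.33, adjusted p = 0.0489), the 1 lower member, against 1.19% of genes. There was also 1 lower member without parental VT107 replicate 3, but the share of all genes is not given for that fit. DDX10 (-1.94, SE 0.44), NOP58 (-1.61, SE 0.39) and WDR43 (-1.68, SE 0.53) did not pass. In the other direction RRP12 (1.73, SE 0.55) and FBL (1.48, SE 0.54) had NF1 mutant libraries wholly above parental ones without passing, and their values were 0.80 (SE 0.25) and 0.63 (SE 0.27) without NF1 mutant VT107 replicate 1. These libraries also enter the VT107 comparisons within each line.

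**Figure D5:**
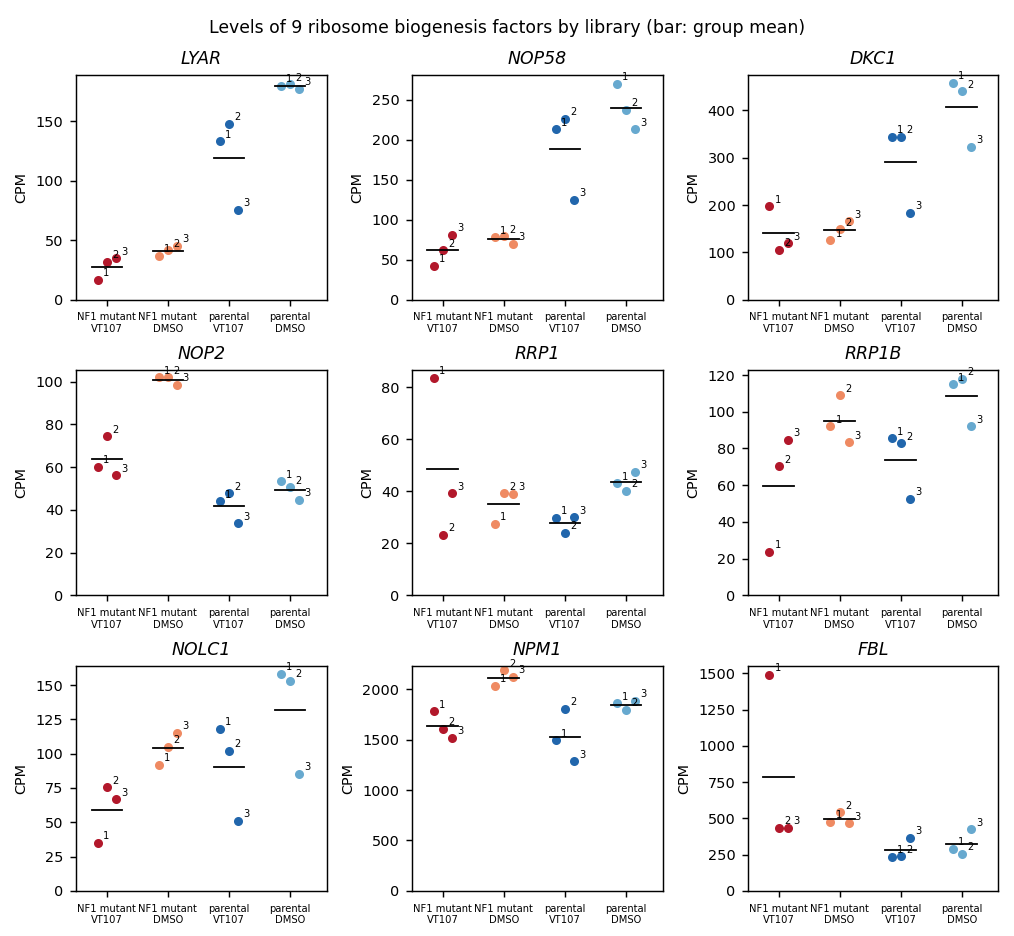
CPM of 9 members (points: libraries, with their replicate number; bars: group means) in each of the 12 H2052 libraries, with NF1 mutant VT107, NF1 mutant DMSO, parental VT107 and parental DMSO in order. LYAR is at 16.7 to 45.1 CPM in the 6 NF1 mutant libraries and 75.6 to 181 CPM in the 6 parental ones.

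Sequence before the RefSeq starts was available for 42 of the 48 members, in 49 windows of 250 bases (GRCh38.p14). The motif CACGTG, an E-box bound by MYC among other factors and the same on both strands, was in the windows of 7 of 42 members (16.7%), against 7.73% of 27305 genes. The TEAD motif GGAATG, searched on both strands, was in those of 6 (14.3%), against 14.3% of genes. A match is a description and not a site. The windows of the 3 members with an E-box that were lower in NF1 mutant DMSO libraries are shown, with the E-box in capitals, because these genes fell between the genotypes. They are LYAR (chr4:4290022-4290271, minus strand, E-box 64 bases before the start), DDX21 (chr10:68956397-68956646, plus strand, 31 bases) and EBNA1BP2 (chr1:43172571-43172820, minus strand, 237 bases). Each of these 3 genes has another window, at a different start, without an E-box, and that of LYAR holds the TEAD motif. The other members with an E-box, NOP10, UTP14A, UTP18 and UTP20, were not called between genotypes in DMSO.
LYAR: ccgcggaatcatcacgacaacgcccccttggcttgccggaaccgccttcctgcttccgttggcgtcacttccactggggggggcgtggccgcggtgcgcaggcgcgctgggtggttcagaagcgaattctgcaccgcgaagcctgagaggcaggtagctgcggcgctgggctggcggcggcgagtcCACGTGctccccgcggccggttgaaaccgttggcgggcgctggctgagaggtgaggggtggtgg
DDX21: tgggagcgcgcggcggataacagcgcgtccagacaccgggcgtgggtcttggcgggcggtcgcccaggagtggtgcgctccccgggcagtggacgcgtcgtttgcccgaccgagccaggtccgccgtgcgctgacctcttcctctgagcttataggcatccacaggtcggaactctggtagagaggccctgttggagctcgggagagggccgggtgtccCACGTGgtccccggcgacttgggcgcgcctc
EBNA1BP2: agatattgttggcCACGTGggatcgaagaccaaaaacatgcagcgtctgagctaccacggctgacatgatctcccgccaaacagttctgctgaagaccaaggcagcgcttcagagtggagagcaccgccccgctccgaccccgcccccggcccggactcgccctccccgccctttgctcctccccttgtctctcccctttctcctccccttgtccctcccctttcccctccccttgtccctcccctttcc

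The H226 table gave 45 of the 48 members a row, and for 21 of them a gene on the other strand overlaps. Overlapping gene pairs were chosen for at least 3000 counts on one gene in parental H2052 libraries and at least 20-fold fewer on its opposite-strand partner, and in 43 of the 45 such pairs with rows in the H226 table the H226 counts were higher on the partner. The 24 members with no overlap had a median of 101 counts over the 6 H226 libraries, against 7772 over the 6 parental H2052 libraries. Depth differs too: H226 libraries had 1387223 to 1726786 total counts, against 10950284 to 13418485 in parental H2052 libraries. Given the pairs above, the H226 counts cannot be assigned to the sense transcript, and they are given only beside the H2052 results. The table also lists only genes from the authors' own comparison. In it the members took 0.0972, 0.0987 and 0.0961% of counts in VT107 libraries, against 0.13, 0.12 and 0.121% in DMSO libraries.

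Of the 38 members tested in H226, 12 (31.6%) were lower with VT107, against 10.5% of 12765 genes, and 2 (5.26%), BOP1 and NOP14, were higher, against 9.09%, both overlapped on the other strand. Among the 20 tested members without an overlap, 9 (45%) fell and 0 rose, against 9.49% of 6505 genes in each direction, with a median of -0.72. NOP58 had 58, 45 and 50 counts in VT107 libraries, against 112, 91 and 101 counts in DMSO libraries (log2 fold change -1.22, SE 0.18, adjusted p = 2.45e-05). DDX21, a helicase that promotes ribosomal RNA transcription, had 44, 51 and 67 counts in VT107 libraries, against 117, 95 and 103 counts in DMSO libraries (-1.18, SE 0.19, adjusted p = 9.5e-05). NOP2 had 30, 19 and 25 counts in VT107 libraries, against 57, 51 and 35 counts in DMSO libraries (-1.16, SE 0.24, adjusted p = 0.00114). In all 3 genes the groups did not overlap.

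The other members that fell in H226 and are not overlapped were WDR43 (-1.01, SE 0.19), LYAR (-2.04, SE 0.47), NOP56 (-1.32, SE 0.33), DDX10 (-0.49, SE 0.15), WDR75 (-0.80, SE 0.26) and POLR1A (-0.65, SE 0.21). The last 3 kept the call in 9, 11 and 10 of 16 alternatives, in that order. Leaving out single libraries gave 9 to 12 lower members, a range not set against the share of all genes in those fits. RRP1 was not tested there, with at most 4 counts in any library.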

How the data were processed

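Read counts per gene were used as deposited by the authors for 12 H2052 and 6 H226 libraries. The submitters' processing notes name bcl2fastq 2.20.0.422 and hg19. How reads were aligned and counted, and whether by strand, is not given in the sources used here. Beside its counts, the H226 table holds p-value columns and a log2 fold change column deposited by the authors from their own comparison. These were not used. A further table was not used, as its 16 columns match no described sample. Repeated gene IDs (63 in H2052) were summed. The members and gene lists were chosen with earlier results of these data known.

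A gene was kept when all libraries compared had 0.5 CPM or more, and was tested with edgeR 4.0.16 (TMM, quasi-likelihood, R 4.3.3) and Benjamini-Hochberg adjustment at 0.05 over all genes tested. Log2 fold changes have SE computed from the F statistic. CPM values use TMM factors. Alternatives were DESeq2 1.42.0, limma 3.58.1 voomWithQualityWeights, other scaling and filters, a replicate block, single libraries left out, the number 3 libraries left out, all 12 libraries in 1 fit, a transcript length offset and thinned parental libraries. The length offset and the thinning were chosen after seeing the data. Transcript lengths came from the GENCODE basic annotation (the longest principal transcript where there was one), matched by gene ID, or by symbol where the ID had no match. Same-number libraries correlated in parental cells (r = 0.606, 0.482 and 0.79), so the block is given there, although the different numbers 1 and 2 also correlated (0.6 and 0.51) and the labels state no pairing. Other comparisons did not meet this (for example -0.164, -0.215 and 0.161 in NF1 mutant cells). Members were named when called, up to 10 per comparison by smallest p, or else the 5 with the smallest unadjusted p, with the most abundant member of each role group and RRP1. FBL and RRP12 in NF1 mutant VT107 replicate 1, FBL between genotypes in VT107, and the 8 called members beyond 10 between genotypes in DMSO were added after their values were seen, and in H226 only members without an opposite-strand overlap are described. Shares of counts carry 95% Wilson intervals, for counting error only.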

Additional observations from a re-analysis of the deposited data

How the results depend on the processing

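Among the summary results, 275 alternative values stayed close to the reported one, 34 moved, and no called value changed sign. The median of the interaction, where nothing was called, ran from -0.21 to 0.10 without single libraries, and the other medians from -0.46 to -0.16 in parental cells, -0.54 to -0.29 in NF1 mutant cells, -0.36 to -0.14 between genotypes in DMSO and -0.65 to -0.31 in VT107. In parental cells the replicate block gave 4 lower members, and the length offset with the replicate block gave 5 (1.11% of genes). In NF1 mutant cells voomWithQualityWeights gave 2 lower members, and leaving out single libraries gave 0 to 1. Between genotypes in DMSO, voomWithQualityWeights gave 24 lower and 8 higher, the number 3 libraries left out gave 24 lower and 8 higher with a median of -0.40, all 12 libraries in 1 fit gave 6 lower and 1 higher, and single libraries left out gave 7 to 24 lower and 1 to 7 higher. With the replicate block there were 13 lower and 3 higher. In VT107, DESeq2 gave 3 lower and 1 higher, no filter gave 1 lower (0.917% of genes), voomWithQualityWeights gave 19 lower and 3 higher, all 12 libraries in 1 fit gave 7 lower and 2 higher, and leaving out single libraries gave 0 to 1 lower. In H226 the median without single libraries was -0.72 to -0.51, with no opposite-strand overlap 0 members were higher, and the replicate block gave 17 lower and 2 higher (13.7% and 11.8% of genes). The replicate block gave 0 calls in NF1 mutant cells, between genotypes in VT107 and in the interaction. The cause was not tested. Counts of members given without a share of all genes describe how the count moved and are not compared with all genes. Lower depth in NF1 mutant libraries limits the members with low counts.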

Other observations

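In parental cells 80 of 94 other ribosome biogenesis factors had a negative log2 fold change of VT107 against DMSO, with a median of -0.21, and none was called in edgeR. The 76 cytosolic ribosomal protein genes summed to 111699, 201097 and 107792 CPM in parental VT107 libraries, against 117667, 115135 and 111583 CPM in parental DMSO libraries, so that VT107 replicate 2 alone was high. Their median log2 fold change was 0.25, with 73 positive and none called, and -0.05, with 26 positive, without that library. With the replicate block 2 of the other biogenesis factors fell, BYSL (-0.81, SE 0.16, adjusted p = 0.0369) and POLR1E (-0.80, SE 0.13, adjusted p = 0.0238), where 0.822% of all genes did. In NF1 mutant cells without VT107 replicate 1, MRTO4 (-0.68, SE 0.13, adjusted p = 0.0214) and DIMT1 (-0.62, SE 0.14, adjusted p = 0.0398) fell, where 0.715% of all genes did.

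Across the 12 H2052 libraries the median Pearson r over all pairs of members was 0.385, and 0.437 for deviations from the group means, as a description over libraries that share depth and genotype. FBL had a median r of -0.65 with the other members and RRP12 of -0.497.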
